A study of Mus musculus with 56 samples.

Results

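This is an account of 10 genes of the neuromuscular junction, the synapse at which a motor nerve drives a skeletal muscle fibre, in muscle labelled as lacking the RNA-binding protein HuR. The genes are Ache, Colq, Chrna1, Chrnb1, Chrne, Chrnd, Musk, Dok7, Ncam1 and Dach2. They were looked up by symbol in a table of 57010 genes, and all 10 were found in it. They were chosen with earlier results of these data known, so the shares of them that passed are descriptions. The table covers 56 sequencing libraries from gastrocnemius, a calf muscle, of 28 mice aged 20 to 22 weeks. Every group carried a ribosomal protein, L10A, tagged with GFP and switched on by Cre recombinase under the Mlc1f promoter, a promoter of a muscle myosin light chain gene, so controls carry Cre and the tag as well. Labelled knockouts also carried a floxed Elavl1, the gene for HuR, while the labels describe the other mice only as controls. For females and males alike, ribosomal RNA (RNA held by the tagged ribosomes) and total RNA of the whole homogenate were sequenced, which gives 8 groups of 7 libraries. Within a sex and genotype, a ribosomal and a total library share a mouse number in the labels.

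Acetylcholine released by the nerve opens a receptor of 5 subunits in the fibre membrane, which in adult muscle holds the products of Chrna1, Chrnb1, Chrnd and Chrne. The transmitter is then split by acetylcholinesterase, the product of Ache, which is anchored in the synaptic cleft by the collagen tail ColQ. The receptors are gathered under the nerve by the receptor kinase MuSK and its cytoplasmic activator Dok7, and the nuclei beneath the nerve transcribe most of these genes far more than other nuclei of the fibre do. Ncam1 encodes an adhesion molecule that spreads over the fibre after denervation, and Dach2 encodes a transcription cofactor that restrains myogenin and thereby synaptic genes. HuR binds AU-rich stretches of messenger RNA, mostly in the 3′ untranslated region, and Ache messenger RNA is among its targets named in the literature.

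Promoters of 7 of the 10 members were in the RefSeq table of mouse build GRCm38.p6, as 9 windows running from 250 bases before to 50 after a start. The windows of Chrna1, Chrne and Musk are shown because they hold motifs of synaptic and myogenic transcription, and that of Ache because it is the member with the most frequent change and holds none. Capitals mark the N-box CCGGAA, the E-box CAGCTG, and CACCTG, which reads CAGGTG on the other strand. Each was searched on both strands, and no hits overlapped.
Chrna1, chr2:73580289-73580588, minus strand: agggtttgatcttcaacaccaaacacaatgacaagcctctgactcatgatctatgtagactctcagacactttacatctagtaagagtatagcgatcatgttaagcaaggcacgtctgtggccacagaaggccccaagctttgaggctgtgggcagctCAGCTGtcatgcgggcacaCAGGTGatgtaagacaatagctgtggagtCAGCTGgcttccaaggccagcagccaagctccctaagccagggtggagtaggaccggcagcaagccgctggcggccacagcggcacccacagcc
Chrne, chr11:70619145-70619444, minus strand: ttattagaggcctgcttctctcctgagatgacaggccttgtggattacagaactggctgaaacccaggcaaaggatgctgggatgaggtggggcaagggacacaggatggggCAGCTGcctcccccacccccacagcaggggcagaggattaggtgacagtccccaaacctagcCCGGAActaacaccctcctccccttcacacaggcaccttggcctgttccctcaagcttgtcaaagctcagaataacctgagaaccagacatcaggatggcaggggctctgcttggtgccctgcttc
Musk, chr4:58285712-58286011, plus strand: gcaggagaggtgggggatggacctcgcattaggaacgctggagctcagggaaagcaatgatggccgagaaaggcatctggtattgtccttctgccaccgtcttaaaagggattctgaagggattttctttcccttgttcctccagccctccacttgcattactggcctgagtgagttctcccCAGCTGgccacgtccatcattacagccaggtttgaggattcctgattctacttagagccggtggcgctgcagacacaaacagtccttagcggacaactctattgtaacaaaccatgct
Ache, chr5:137288004-137288303, plus strand: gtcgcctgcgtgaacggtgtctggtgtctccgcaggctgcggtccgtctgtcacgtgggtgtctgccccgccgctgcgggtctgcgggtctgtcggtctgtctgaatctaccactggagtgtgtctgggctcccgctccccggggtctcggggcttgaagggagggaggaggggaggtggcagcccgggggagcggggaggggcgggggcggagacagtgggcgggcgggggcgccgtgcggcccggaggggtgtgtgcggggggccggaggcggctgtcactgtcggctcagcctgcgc
Chrne holds the N-box at −76 from the start, which 14.9% of 32851 promoters also hold, and an E-box CAGCTG at −138. Chrna1 holds CAGCTG at −92 and −44 and CACCTG at −73, Musk holds CAGCTG at −68, and Chrnb1, whose window is not printed, holds CACCTG at −29. Of all promoters 16.3% hold CAGCTG, 20.2% hold CACCTG and 32.9% hold either. None of these letters occurs in the windows of Ache, Dok7 or Dach2.

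The AU-rich pentamer ATTTA was counted in the longest 3′ untranslated region of each member in the GENCODE annotation of build GRCm38. That of Ache is short, at 228 bases, and holds 2 overlapping copies, or 8.77 per kb, against 1.93 per kb over 20959 genes. Chrna1 holds 8 in 2961 bases, 3 of them in 1 run, and Dach2 holds 10 in 3164 bases. Ncam1 and Chrnd hold 2 each, and Chrnb1 and Musk 1 each. Colq, Chrne and Dok7 hold 0, where 65.1% of all genes hold at least 1. The U-rich motif TTTNTTT was counted too, and Ncam1 holds 45 copies, or 13.6 per kb, against 3.49 per kb over all genes. Chrna1 and Dach2 hold 9 each, Chrnb1 2 and Ache 1, and the other members 0. The runs of Ache and Chrna1 are printed with the pentamers in capitals, beginning at base 59 and base 1677 after the stop codon.
Ache: tgtatatacactATTTATTTAagggctgg
Chrna1: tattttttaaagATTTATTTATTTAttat
These are letters of the reference, and binding was not measured here.

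Depth differed strongly between the RNA types. The sum of counts per library, in M (mega), was 0.16 to 3.58 for ribosomal RNA, with a median of 1.62. For total RNA it was 2.43 to 5.85, with a median of 3.56. The 7 ribosomal libraries under 0.75 M counts were female controls 18 and 19, female labelled knockouts 2, 6 and 12, male control 20 and male labelled knockout 2, the shallowest. Levels are CPM, the counts of a gene scaled to a library of 1 M counts within each RNA type, and each library gives 1 tag near the 3′ end of a transcript, so levels are not compared between genes. Fibre markers such as Acta1 and Ckm summed to 40800 to 177000 CPM over all libraries. The motor nerve marker Chat had 0 counts in every group. In ribosomal RNA of females, labelled knockouts had 0.491 to 1.21 M counts and controls 0.423 to 3.06 M. Mitochondrially encoded mRNAs summed to 4930 to 23600 CPM in these labelled knockouts and 1300 to 6190 CPM in these controls. With the mitochondrial level in the model, 508 of 9098 genes had an adjusted p under 0.05 there, against 1533 without it. The part of depth in that comparison was not tested.

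Elavl1 itself did not fall in the labelled knockouts. Its log2 fold change against controls was 0.27 (adjusted p = 0.206) in ribosomal RNA of females and 0.29 (adjusted p = 0.234) in that of males. In total RNA it was −0.01 (adjusted p = 0.969) in females and −0.14 (adjusted p = 0.477) in males. The floxed exons are not given in the sources used here, and a 3′ tag outside the deleted part checks nothing, so the groups are called labelled knockouts throughout. Some total libraries of labelled knockouts stood apart. For Mss51, a muscle gene that rose in every comparison, female labelled knockouts 5, 6 and 12 had 171, 132 and 131 CPM in total RNA against 315 to 523 CPM in the other 4 and 51.0 to 141 CPM in controls. Male labelled knockouts 1 and 12 had 214 and 215 CPM against 397 to 524 CPM in the other 5 and 157 to 333 CPM in controls. In ribosomal RNA every labelled knockout lay above every control of its sex for Mss51. Results of the knockout comparisons in total RNA were therefore also computed without these 5 libraries, a choice made after their values were seen. Only labelled knockouts were left out, picked for a weak response of a gene that rises in them. For genes that split at the same libraries, stronger results without them follow from that choice and are no added support.

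Ache was the only member that passed the test in all 4 comparisons of labelled knockouts with controls, and it was higher in each. Dach2 fell in ribosomal RNA of both sexes. Chrna1 rose in ribosomal RNA of both sexes, Chrne in that of males and Ncam1 in that of females. Chrnb1 fell in total RNA of both sexes, Musk fell in both RNA types of males and Dok7 in total RNA of males. Colq passed in none of the 4, and Chrnd had too few counts to be tested. A gene passed at an adjusted p under 0.05 from edgeR's quasi-likelihood test over all genes, and a fold change is on the log2 scale.

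**Figure D1:**
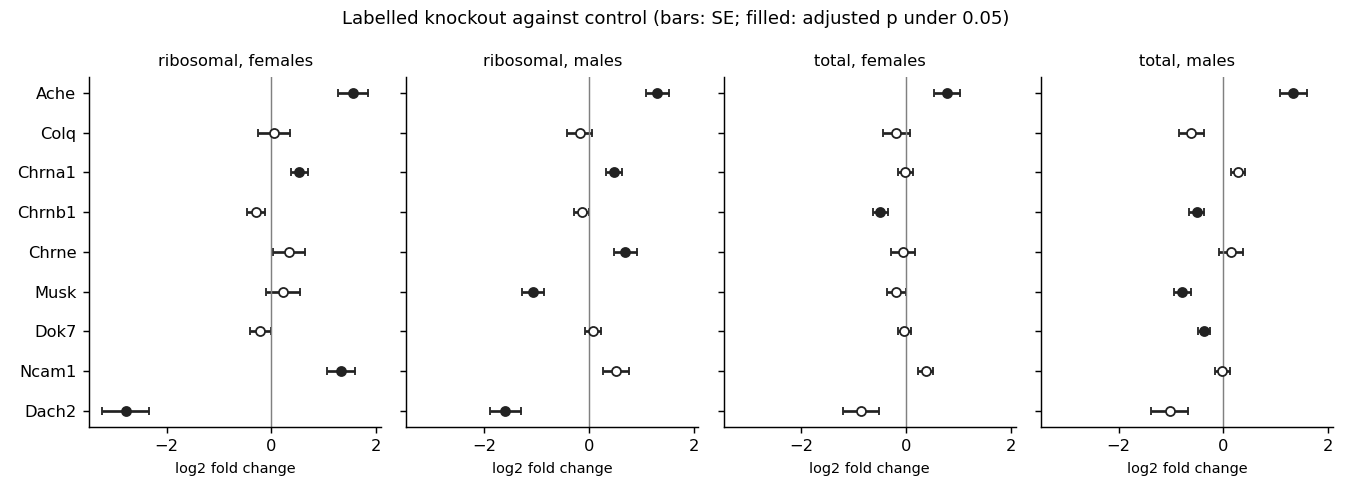
Log2 fold change of 9 members in labelled knockouts against controls (x axis) in 4 comparisons, with bars of 1 standard error and filled points where the adjusted p was under 0.05. Ache lies to the right of 0 in every panel, from 0.78 in total RNA of females to 1.56 in ribosomal RNA of females, and Dach2 lies to the left in every panel, unfilled in total RNA.

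In the ribosomal libraries of females 4 of 9 members tested passed, 3 higher and 1 lower, where 16.8% of 9098 genes passed (8.44% higher and 8.41% lower). In that of males 5 of 9 passed, 3 higher and 2 lower, where 8.96% of genes passed (4.09% higher and 4.87% lower). In the total libraries of females 2 of 9 passed, 1 in each direction, where 8.49% of 12860 genes passed (3.79% higher and 4.7% lower). In that of males 4 of 9 passed, 1 higher and 3 lower, where 14.2% of genes passed (6.83% higher and 7.36% lower). The median log2 fold change of the 9 was 0.22, 0.08, −0.06 and −0.37 in this order, against −0.02, −0.01, 0.02 and 0.00 over all genes tested. The members therefore did not move as a group: the signs were mixed in each comparison. Of the total libraries, male controls 25, 26 and 27, female control 14 and female labelled knockout 9 had over 19% of reads outside genes. Without them 645 of 13264 genes passed in total RNA of males, against 1824 of 12860 with them. In whole muscle, fewer cells or nuclei of a kind and less RNA in each cannot be told apart.

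Ache had few counts in ribosomal RNA of females, 47 in 7 controls and 64 in 7 labelled knockouts. Controls ran from 0 to 7.05 CPM (median 4.08) and labelled knockouts from 8.54 to 15.4 CPM (median 10.8). All 7 labelled knockouts lay above all 7 controls. This gave a log2 fold change of 1.56 (SE 0.285, adjusted p = 0.000228), or 2.94-fold. The control at 0 was library 19, whose depth allows up to 10.9 CPM at a count of 0, for counting error only.

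In ribosomal RNA of males, Ache ran from 3.17 to 6.61 CPM (median 5.33) in controls and from 0 to 15.5 CPM (median 12.7) in labelled knockouts. Of the 7 labelled knockouts 6 lay above all controls. The other was library 2, the shallowest, where a count of 0 allows up to 21.6 CPM. Against controls the log2 fold change was 1.31 (SE 0.219, adjusted p = 8.85e-05).

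In total RNA of males, Ache ran from 2.29 to 6.58 CPM (median 4.33) in controls and from 5.02 to 15.8 CPM (median 10.8) in labelled knockouts, of which libraries 1 and 2 overlapped the controls at 5.02 and 5.80 CPM. The log2 fold change was 1.34 (SE 0.255, adjusted p = 0.00136). In the total libraries of females, controls ran from 3.61 to 8.30 CPM (median 5.05) and labelled knockouts from 5.10 to 13.9 CPM (median 9.25), and the groups overlapped. This gave a log2 fold change of 0.78 (SE 0.25, adjusted p = 0.0483), close to the threshold. It did not pass without any 1 of female controls 14, 16, 17, 18 or 21 or labelled knockouts 1, 2, 10 or 12, at 0.65 to 0.80 (adjusted p = 0.0592 to 0.122). It also failed without the count filter (0.78, adjusted p = 0.0619) and without total libraries above 19% of reads outside genes (0.81, adjusted p = 0.0577).

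Without the libraries of low Mss51 the log2 fold change of Ache in total RNA was 1.01 (adjusted p = 0.0109) in females and 1.45 (adjusted p = 0.000305) in males. In both RNA types the median of Ache in either control group was below that in either group of labelled knockouts. Controls of the sexes did not differ beyond their spread, at a log2 difference of males over females of 0.35 (adjusted p = 0.483) in ribosomal and −0.40 (adjusted p = 0.405) in total RNA. Red blood cell precursors also make acetylcholinesterase, and haemoglobin and related transcripts moved with it. The 6 erythroid markers summed to 125 to 247 CPM in ribosomal RNA of female controls and 275 to 1070 CPM in that of labelled knockouts. In males these sums were 149 to 242 and 334 to 533 CPM. In total RNA they were 688 to 1090 and 807 to 2200 CPM in females and 725 to 1060 and 1490 to 2590 CPM in males. All 5 of these markers that were tested rose in each of the 4 comparisons, and their part in the Ache result was not tested. Motor neurons make the enzyme too. The 10 motor nerve markers summed to 3.03 to 7.29 CPM in ribosomal RNA of female controls and 3.32 to 23.5 CPM in that of labelled knockouts. In males these sums were 1.41 to 6.04 and 1.98 to 21.6 CPM, and 0 of the 10 could be tested in ribosomal RNA. In total RNA they were 14.9 to 49.1 and 17.1 to 47.8 CPM in females and 11.1 to 26.4 and 17.4 to 31.6 CPM in males. Of the 2 markers that could be tested in total RNA, 0 passed. The part of motor nerve transcripts in the Ache result was not tested.

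**Figure D2:**
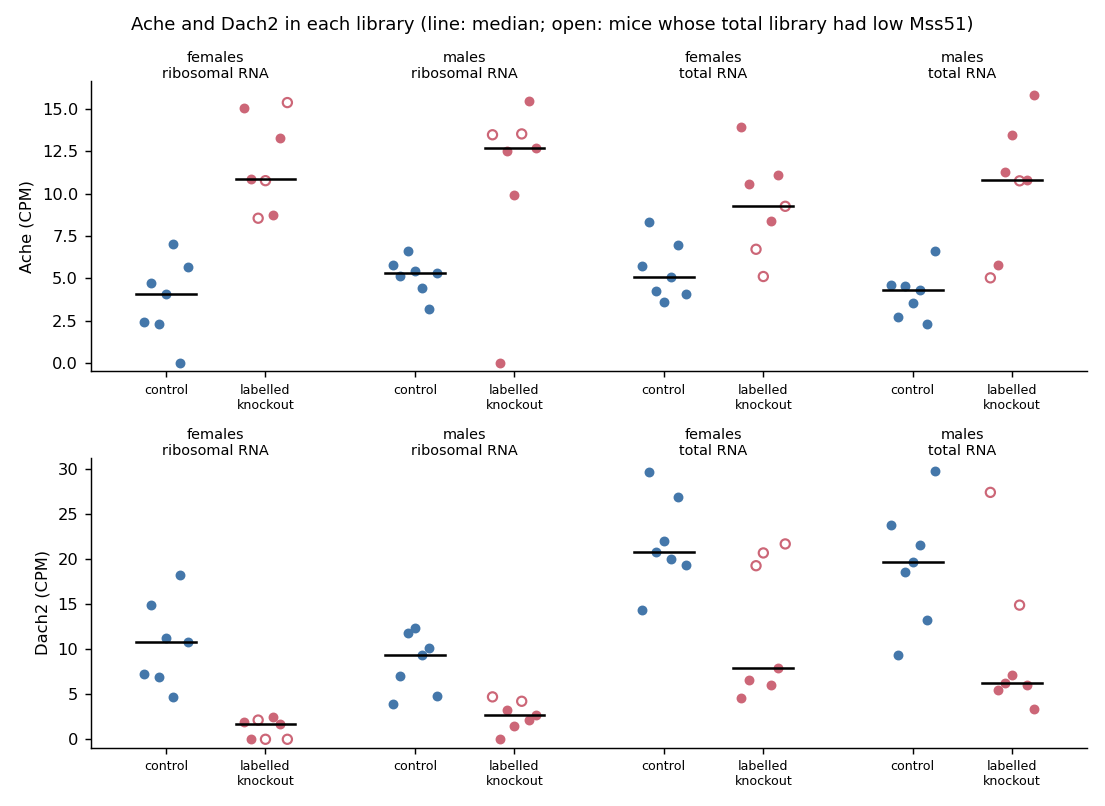
CPM of Ache (top) and Dach2 (bottom) in each of the 56 libraries, by sex, RNA type and genotype, with a line at the median and open points for the mice whose total library had low Mss51. In the ribosomal libraries of females the groups do not overlap for either gene, and in total RNA the open points of Dach2 lie among the controls.

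Colq, the collagen tail of the enzyme, did not move with it. In ribosomal RNA it ran from 3.65 to 12 CPM in female controls and from 3.20 to 11.3 CPM in female labelled knockouts, with log2 fold changes of 0.05 (adjusted p = 0.938) in females and −0.17 (adjusted p = 0.732) in males. In total RNA of males it ran from 4.19 to 13.6 CPM (median 7.28) in controls and from 2.43 to 6.49 CPM (median 4.96) in labelled knockouts, and the groups overlapped. That log2 fold change was −0.61 (SE 0.241, adjusted p = 0.0838), and of the refits without 1 library it passed in the one without male control 20, at −0.72 (adjusted p = 0.0373). In the total libraries of females it was −0.19 (adjusted p = 0.709). Without the libraries of low Mss51, Colq stood at −0.13 (adjusted p = 0.836) in females and −0.49 (adjusted p = 0.204) in males.

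Chrna1 encodes the subunit that binds acetylcholine. In ribosomal RNA of females it ran from 44.6 to 82.5 CPM (median 71.0) in controls and from 54.5 to 130.3 CPM (median 97.1) in labelled knockouts, which overlapped the controls in libraries 5 and 12. Against controls the log2 fold change was 0.53 (SE 0.165, adjusted p = 0.0229), and it did not pass without labelled knockout 1 or 10 (0.44 to 0.45, adjusted p = 0.0711), nor without the count filter (0.44, adjusted p = 0.0604). In the ribosomal libraries of males controls ran from 52.0 to 74.9 CPM (median 67.8) and labelled knockouts from 36.0 to 114 CPM (median 86.2), with 6 of 7 above all controls and the shallow library 2 below them. The log2 fold change was 0.48 (SE 0.154, adjusted p = 0.0438). It passed without labelled knockout 2 or control 26, and failed without any 1 of the other 12 libraries (0.42 to 0.51, adjusted p = 0.0524 to 0.111), as it did without the count filter (0.45, adjusted p = 0.0506).

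In total RNA Chrna1 did not pass, at −0.01 (adjusted p = 0.969) in females and 0.28 (adjusted p = 0.177) in males. Here the female labelled knockouts fell into 2 levels, with libraries 5, 6 and 12 at 77.7, 69.3 and 72.4 CPM, below all 7 controls (90.3 to 116 CPM), and the other 4 at 110 to 131 CPM, 3 of them above all controls. In males, libraries 1 and 12 were at 73.0 and 61.4 CPM and the other 5 at 84.7 to 109 CPM, above all controls (51.3 to 82.2 CPM). Without the 5 libraries of low Mss51 the log2 fold change was 0.26 (adjusted p = 0.128) in females and 0.40 (adjusted p = 0.00849) in males. Chrna1 split at these libraries, so the larger values without them follow from leaving them out and are no added support. Over all libraries the male value passed with a term for mitochondrially encoded transcripts in the model (0.44, adjusted p = 0.0346).

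Chrne encodes the subunit that marks the adult receptor, and it showed the same 2 levels in total RNA. Female labelled knockouts 5, 6 and 12 had 6.15, 6.60 and 6.84 CPM against 12.4 to 19.3 CPM in the other 4 and 9.19 to 14.7 CPM in controls. Male labelled knockouts 1 and 12 had 8.12 and 5.55 CPM against 14.4 to 18 CPM in the other 5 and 9.01 to 14.2 CPM in controls. The log2 fold change of all 7 against 7 was −0.06 (adjusted p = 0.912) in females and 0.14 (adjusted p = 0.709) in males. Without the 5 libraries it was 0.34 (adjusted p = 0.136) and 0.37 (adjusted p = 0.0637), and these larger values follow from leaving them out. In ribosomal RNA of males Chrne ran from 5.80 to 13 CPM (median 9.68) in controls and from 10.2 to 24.5 CPM (median 15.1) in labelled knockouts, and the groups overlapped in library 6. It rose by 0.70 (SE 0.22, adjusted p = 0.0404). That call failed without any 1 of male controls 20, 21, 25, 26 or 27 or labelled knockouts 1, 10, 12, 13 or 14 (0.60 to 0.73, adjusted p = 0.0509 to 0.0967), and without the count filter (0.67, adjusted p = 0.0567). In the ribosomal libraries of females the log2 fold change was 0.34 (adjusted p = 0.479).

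Chrnb1, the beta subunit, was the receptor gene that fell, and only total RNA showed a fall that passed. In total RNA of males it ran from 57.9 to 76.1 CPM (median 68.7) in controls and from 35.5 to 64.6 CPM (median 52.8) in labelled knockouts, of which 6 of 7 lay below all controls. This gave a log2 fold change of −0.51 (SE 0.142, adjusted p = 0.0168), and −0.41 (adjusted p = 0.0269) without the libraries of low Mss51. With the mitochondrial term it did not pass, at −0.31 (adjusted p = 0.118). In the total libraries of females controls ran from 67.3 to 99.8 CPM (median 72.4) and labelled knockouts from 38.4 to 81.2 CPM (median 51.1), again with 6 of 7 below all controls. The log2 fold change there was −0.49 (SE 0.141, adjusted p = 0.0253). Without the libraries of low Mss51, which had 38.4 to 41.8 CPM in females, it was −0.26 (adjusted p = 0.238). It also failed without any 1 of female labelled knockouts 5, 6 or 12 or controls 14 or 21 (−0.47 to −0.41, adjusted p = 0.0526 to 0.0794). In ribosomal RNA it was −0.29 (adjusted p = 0.24) in females and −0.13 (adjusted p = 0.628) in males, and the groups overlapped.

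**Figure D3:**
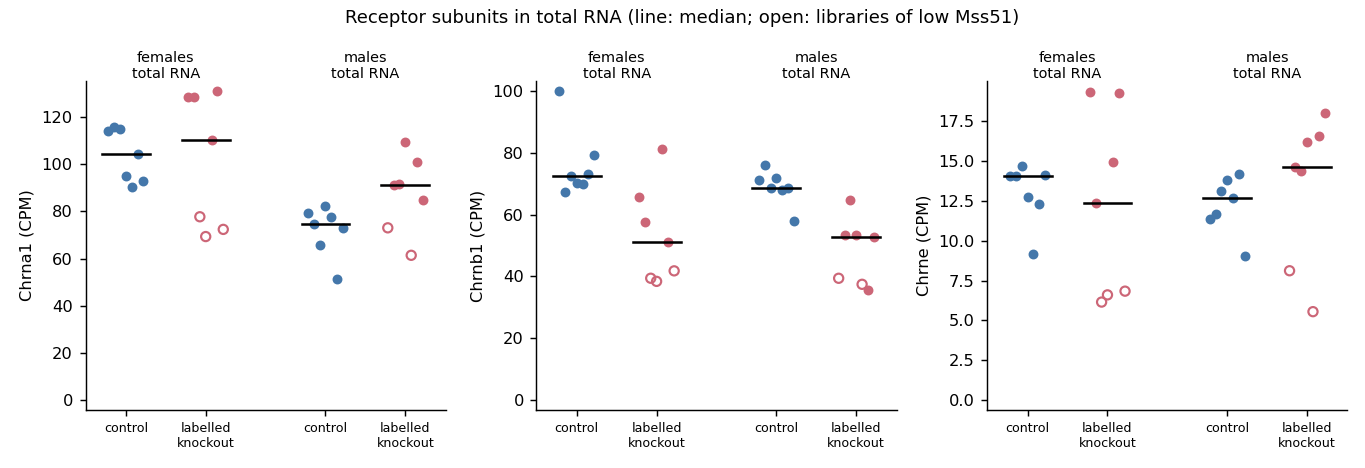
CPM of the receptor subunit genes Chrna1, Chrnb1 and Chrne in each total library (y axes), by sex and genotype, with a line at the median and open points for the 5 labelled knockouts of low Mss51. The open points lie at or near the bottom of their group for all 3 genes, and for Chrne all 5 lie below every control of their sex.

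The delta subunit gene Chrnd had 6 to 41 counts in the 7 libraries of a group and was not tested. Its median was 0.83 CPM in ribosomal RNA of female labelled knockouts and 1.02 in that of controls, and 1.69 and 1.91 in males. In total RNA the medians were 0.741 and 1.59 CPM in females and 0.915 and 1.27 CPM in males. All these ranges overlapped. Chrng, which encodes the fetal subunit that returns on denervation and is no member, had 0 to 4 counts in the 7 libraries of each group.

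Musk, the receptor kinase, fell in labelled knockout males. In ribosomal RNA it ran from 19.6 to 39.8 CPM (median 32.4) in male controls and from 8.42 to 25.4 CPM (median 20.4) in male labelled knockouts. The groups overlapped, with labelled knockouts 1, 13 and 14 below all controls. Against controls the log2 fold change was −1.07 (SE 0.217, adjusted p = 0.00124). In total RNA controls ran from 16.4 to 24.7 CPM (median 23.2) and labelled knockouts from 6.83 to 16.7 CPM (median 13.1), with 6 of 7 below all controls. The log2 fold change there was −0.78 (SE 0.168, adjusted p = 0.00319).

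Without the libraries of low Mss51 the fall of Musk in total RNA of males was −0.83 (adjusted p = 0.0051), and the female value in total RNA was −0.22 (adjusted p = 0.614). In females Musk did not pass over all libraries, at 0.22 (SE 0.322, adjusted p = 0.68) in ribosomal and −0.18 (SE 0.188, adjusted p = 0.6) in total RNA. Female controls ran from 6.68 to 23.5 CPM (median 8.51) and female labelled knockouts from 8.07 to 17.6 CPM (median 9.04) in ribosomal RNA. The test of the difference between the sexes gave −1.29 (SE 0.393, adjusted p = 0.0569) in ribosomal RNA, on the edge of the threshold. It passed with limma-voom (−1.65, adjusted p = 0.00815), without the filter on low counts (−1.21, adjusted p = 0.025), or without any 1 of female controls 18 or 19, male control 22 or male labelled knockouts 6 or 12 (−1.42 to −1.32, adjusted p = 0.0281 to 0.049). With the mitochondrial term it was smaller, at −0.74 (adjusted p = 0.619), and with DESeq2 it was −1.21 (adjusted p = 0.0684). In total RNA it was −0.60 (adjusted p = 0.423).

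Dok7, which activates the kinase from inside the fibre, fell in total RNA of males. It ran from 28.1 to 44.4 CPM (median 29.6) in controls and from 23.6 to 31.5 CPM (median 24.7) in labelled knockouts, and the groups overlapped. The log2 fold change was −0.37 (SE 0.117, adjusted p = 0.031). It did not pass without any 1 of male controls 20 or 23 or labelled knockouts 2, 12, 13 or 14 (−0.36 to −0.29, adjusted p = 0.0554 to 0.0923), nor without the libraries of low Mss51 (−0.35, adjusted p = 0.0634). It also failed without the count filter, with only the groups compared and with the mitochondrial term (−0.38 to −0.36, adjusted p = 0.0523, 0.0552 and 0.0666). In ribosomal RNA of males it was 0.08 (adjusted p = 0.839), and in females −0.21 (adjusted p = 0.503) in ribosomal and −0.03 (adjusted p = 0.907) in total RNA, or −0.11 (adjusted p = 0.689) without the libraries of low Mss51.

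**Figure D4:**
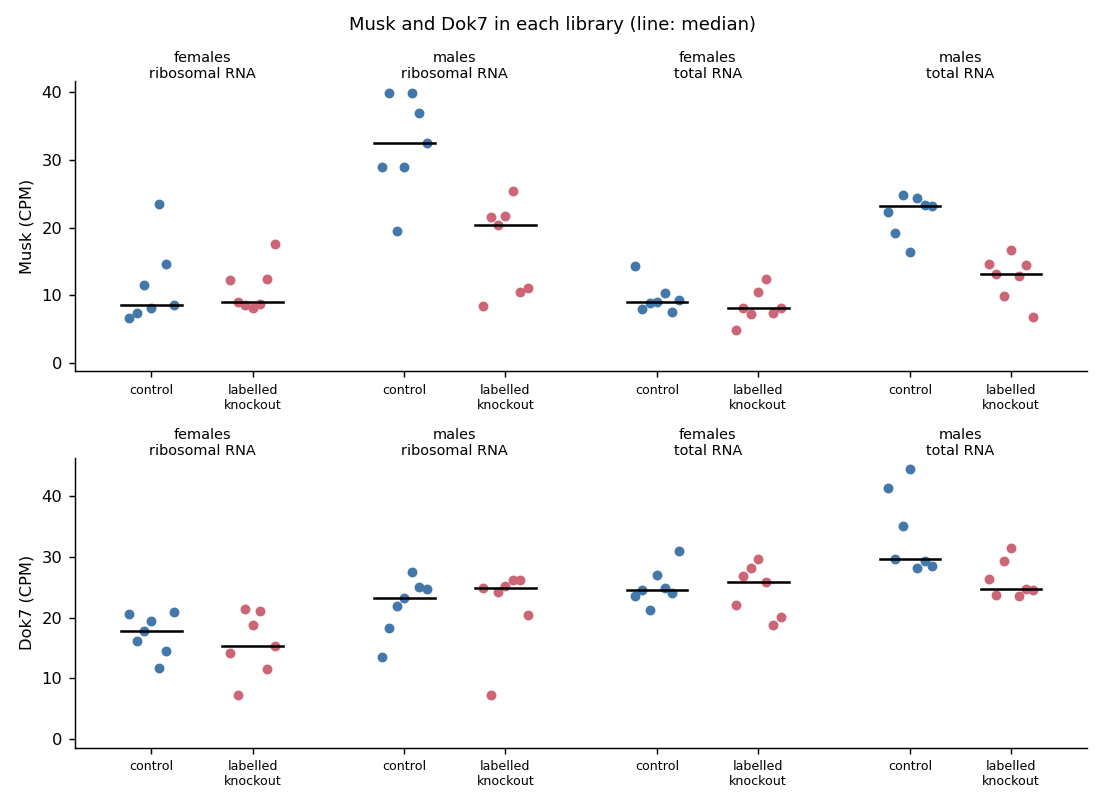
CPM of Musk (top) and Dok7 (bottom) in each of the 56 libraries, by sex, RNA type and genotype, with a line at the median. Male controls have the highest median of Musk in both RNA types, 32.4 and 23.2 CPM, and the medians of male labelled knockouts, 20.4 and 13.1 CPM, lie between those and the medians of both female groups.

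Ncam1 rose in ribosomal RNA of females. Controls ran from 6.24 to 16.4 CPM (median 10.3) and labelled knockouts from 11.6 to 45.7 CPM (median 22.6), with 6 of 7 above all controls. This gave a log2 fold change of 1.33 (SE 0.269, adjusted p = 0.000746). In the ribosomal libraries of males controls ran from 6.61 to 15.5 CPM (median 9.15) and labelled knockouts from 9.33 to 28.8 CPM (median 13.8), and the log2 fold change was 0.51 (SE 0.249, adjusted p = 0.211). In total RNA it was 0.38 (SE 0.14, adjusted p = 0.0917) in females and −0.02 (adjusted p = 0.949) in males. The female value passed without the libraries of low Mss51 (0.51, adjusted p = 0.0294) without labelled knockout 5 alone (0.45, adjusted p = 0.0358) and with the mitochondrial term (0.43, adjusted p = 0.0253). The male value without the libraries of low Mss51 was −0.01 (adjusted p = 0.984).

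Transcripts of other cells and of fibres rose with Ncam1 in ribosomal RNA of females. The 10 Schwann cell markers summed to 21.9 to 39.9 CPM in controls and 31.5 to 190 CPM in labelled knockouts, and 2 of the 3 that could be tested rose, among them the myelin gene Pmp22 (1.25). All 12 fibroblast and matrix markers, 7 of 7 endothelial markers tested and 7 of 7 mitochondrially encoded mRNAs tested rose as well. Of 10 fibre markers 5 rose and 0 fell, and all 5 erythroid markers tested rose. With a term for mitochondrially encoded transcripts in the model, Ncam1 stood at 0.59 (adjusted p = 0.364). In ribosomal RNA of males none of the 12 matrix markers and none of the 3 Schwann cell markers tested passed. The part of these transcripts in the Ncam1 result was not tested. In total RNA 9 of the 12 matrix markers rose in females and 11 of 12 in males, with sums of 2440 to 4400 CPM in female controls, 3940 to 6050 CPM in female labelled knockouts, 3170 to 4740 CPM in male controls and 4560 to 6740 CPM in male labelled knockouts. Their part in the results of Chrnb1, Musk and Dok7 in total RNA was not tested.

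Dach2 fell furthest of all members. In the ribosomal libraries of females it ran from 4.70 to 18.2 CPM (median 10.8) in controls and from 0 to 2.49 CPM (median 1.66) in labelled knockouts, all 7 of which lay below all 7 controls. The 7 labelled knockouts together held 8 counts, with 0 in libraries 2, 6 and 12, where a count of 0 allows up to 5.42, 8.07 and 6.59 CPM. Against controls the log2 fold change was −2.78 (SE 0.449, adjusted p = 4.63e-05), and −1.99 (adjusted p = 0.0603) with mitochondrially encoded mRNA as a covariate.

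In ribosomal RNA of males Dach2 ran from 3.87 to 12.4 CPM (median 9.34) in controls and from 0 to 4.71 CPM (median 2.67) in labelled knockouts, with 5 of 7 below all controls. Its log2 fold change was −1.60 (SE 0.293, adjusted p = 0.000344). In total RNA it did not pass over all libraries by edgeR's test, at −0.86 (SE 0.344, adjusted p = 0.115) in females and −1.02 (SE 0.357, adjusted p = 0.051) in males. Over all libraries it did pass with limma-voom (−1.12, adjusted p = 0.0123 in females and −1.34, adjusted p = 0.00872 in males) and with the mitochondrial term (−1.33, adjusted p = 0.000953 and −1.81, adjusted p = 0.000133), and in males without the count filter (−1.03, adjusted p = 0.0278). DESeq2 did not call it (adjusted p = 0.185 and 0.0811). Female labelled knockouts 5, 6 and 12 had 19.3, 20.7 and 21.7 CPM, within the controls (14.4 to 29.7 CPM), and the other 4 had 4.54 to 7.90 CPM, below all of them. Male labelled knockouts 1 and 12 had 27.4 and 14.9 CPM, within the controls (9.38 to 29.8 CPM), and the other 5 had 3.41 to 7.18 CPM, below all of them. Without these 5 libraries the log2 fold change was −1.80 (adjusted p = 3.09e-05) in females and −1.76 (adjusted p = 1.84e-05) in males, and in males it also passed without any 1 of labelled knockouts 1 or 12 or control 21 (−1.45 to −1.15, adjusted p = 0.00515 to 0.0428). Dach2 split at the same 5 libraries, so the larger falls without them follow from leaving them out. In ribosomal RNA the female mice with these numbers had 2.14, 0 and 0 CPM, against 4.70 CPM in the lowest control. The zeros come from the shallow libraries 6 and 12, where a count of 0 allows up to 8.07 and 6.59 CPM. They therefore do not place these mice below all controls. The male mice 1 and 12 had 4.71 and 4.23 CPM in ribosomal RNA, the highest of the 7 labelled knockouts and within the range of the controls.

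None of the 9 members tested differed in its response between the sexes or between the RNA types by edgeR's test. Between the sexes 0 passed in ribosomal RNA, where 3.43% of genes passed (1.89% higher and 1.54% lower), and 0 in total RNA, where 0% of genes passed. Musk and Ncam1 had an unadjusted p under 0.05 in ribosomal RNA, Musk and Dok7 in total RNA. DESeq2 called 0 in both and limma-voom 1 in ribosomal RNA, where it called 684 of 9098 genes, and 0 in total RNA. Between the RNA types 0 passed in females, where 3.46% of genes passed (1.85% higher and 1.61% lower), and 0 in males, where 0.128% passed (0.0319% higher and 0.0956% lower). Unadjusted p-values under 0.05 were found for Chrna1, Ncam1 and Dach2 in females and for Dok7 in males. DESeq2 called 1 member in females, Ncam1, where it called 508 of 12546 genes, and 0 in males, and limma-voom 0 in either sex. For Ache the difference between the responses of ribosomal and total RNA was 0.71 (SE 0.399, adjusted p = 0.339) in females and −0.05 (SE 0.313, adjusted p = 1) in males.

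Other genes of the synapse were counted in lists that include the members. Of 12 genes of the postsynaptic scaffold, 3 rose and 4 fell in ribosomal RNA of females, 3 fell in that of males, and 4 fell in total RNA of each sex, with 1 rise in females. Of all genes tested 8.44% rose and 8.41% fell in ribosomal RNA of females, 4.09% and 4.87% in that of males, 3.79% and 4.7% in total RNA of females and 6.83% and 7.36% in that of males, which is the background for each list here. The list's medians were 0.09, −0.12, −0.23 and −0.25 in the order of the comparisons above, beside the medians of all genes given there. Dtna, the gene of the scaffold protein dystrobrevin, fell by 0.37 (adjusted p = 0.00107) in total RNA of females and by 0.48 (adjusted p = 9.7e-05) in that of males. Ank3, which encodes the ankyrin that holds sodium channels in the folds, fell by 0.58 (adjusted p = 0.00087) and 0.48 (adjusted p = 0.0053). Utrn, which encodes the synaptic dystrophin relative utrophin, rose by 1.23 (adjusted p = 0.000541) in ribosomal RNA of females, where markers of other cells and of fibres rose too. Sntb1, a syntrophin gene, fell by 0.98 (adjusted p = 0.00957) in ribosomal RNA of males.

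Of 18 genes of agrin, MuSK and receptor clustering, the 2 that fell in ribosomal RNA of males were Musk and the phosphatase gene Ptpn11 (−0.42, adjusted p = 0.0227), and the 3 that fell in total RNA of males were these 2 and Dok7. In females 0 of 14 passed in ribosomal and 0 of 18 in total RNA by edgeR, with an unadjusted p under 0.05 for 1 (Dnaja3) and 3 (Crkl, Fyn and Ptpn11), and the list's medians ran from −0.11 to 0.11 over the 4 comparisons. Of 16 genes of neuregulin signalling and synaptic transcription, 9 were tested in ribosomal and 14 in total RNA, where 1 fell in each comparison and 1 rose, in ribosomal RNA of males. The riser was Gramd1b, at 1.41 (adjusted p = 0.000729), and its response differed between the sexes by 1.95 (adjusted p = 0.0117), larger in males. Pla2g7, which encodes a secreted phospholipase, fell in all 4 comparisons, by 0.85 (adjusted p = 0.00185) and 1.26 (adjusted p = 3.13e-06) in ribosomal RNA of females and males and by 0.84 (adjusted p = 0.00967) and 0.85 (adjusted p = 0.00716) in total RNA. The list's medians ran from −0.05 to 0.26.

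Of 22 genes of activity and denervation, 18 were tested in ribosomal RNA, where 4 rose and 6 fell in females and 2 rose and 3 fell in males. Of 19 tested in total RNA, 1 rose and 3 fell in females and 1 rose and 2 fell in males. Over all genes 16.8% and 8.96% passed in ribosomal RNA of females and males and 8.49% and 14.2% in total RNA. The medians ran from −0.16 to 0.12. The cell cycle inhibitor gene Cdkn1a fell by 1.90 (adjusted p = 4.15e-07) in ribosomal RNA of females and by 1.44 (adjusted p = 2.82e-05) in that of males. The kinase gene Sik1 rose by 1.28 (adjusted p = 0.00358) and 1.88 (adjusted p = 6.04e-07). Fgfbp1, which encodes a carrier of fibroblast growth factors made by muscle, rose by 2.09 (adjusted p = 3.69e-07) in ribosomal and 1.77 (adjusted p = 4.77e-05) in total RNA of males. Of 14 genes of the synaptic basal lamina and cholinesterase, 11 were tested in ribosomal RNA and 6 of them rose in females, where 8.44% of all genes rose, Ache and collagen and matrix genes such as Col4a2 (1.67, adjusted p = 6.17e-05) among them, and 1, Ache, in males. All 12 fibroblast and matrix markers and all 7 endothelial markers tested rose in the same female libraries, and their part in this count was not tested. In total RNA 2 rose and 1 fell in females and 3 rose in males, and the medians ran from 0.12 in total RNA of females to 0.93 in ribosomal RNA of females.

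Between the sexes, controls differed most in Musk. Male controls exceeded female controls by 1.78 (SE 0.244, adjusted p = 2.62e-06) in ribosomal and by 1.19 (SE 0.172, adjusted p = 1.86e-05) in total RNA on the log2 scale. In total RNA the 7 male controls (16.4 to 24.7 CPM) lay above the 7 female controls (7.54 to 14.4 CPM), and in ribosomal RNA 1 female control, the shallow library 18 at 23.5 CPM, reached into the male range. Musk was the only member of 9 that passed in ribosomal RNA, where 7.63% of genes passed (4.25% higher and 3.37% lower). In total RNA 3 of 9 passed, where 8.7% of genes passed (4.75% higher and 3.95% lower). Dok7 was higher in males by 0.44 (SE 0.117, adjusted p = 0.0153), and Chrna1 was lower, at −0.52 (SE 0.14, adjusted p = 0.0166) in total but −0.06 (adjusted p = 0.869) in ribosomal RNA. The Chrna1 call failed when total libraries above 19% of reads outside genes were dropped (−0.43, adjusted p = 0.123).

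Ribosomal RNA was set against total RNA in controls, in a joint scaling of all 56 libraries. Musk and Colq were higher on tagged ribosomes in both sexes and Ncam1 lower in both by edgeR's test, though the calls of Musk in females and Colq in males depended on the processing. In female controls 4 of 9 members passed, 2 higher and 2 lower, where 68.1% of 12546 genes passed (30.1% higher and 38.1% lower). In male controls 5 of 9 passed, 4 higher and 1 lower, where 70.7% of genes passed (32.1% higher and 38.6% lower), so the share called is below that of all genes. The median of all genes was −0.12 in females and −0.09 in males, and −0.35 and −0.32 with RLE size factors, so values within this shift depend on the scaling.

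On the joint scale Musk in male controls ran from 13.5 to 20.5 CPM in total RNA and from 24.2 to 49.9 CPM in ribosomal RNA, with no overlap. The log2 difference was 1.14 (SE 0.178, adjusted p = 9.15e-08). In female controls it was 0.55 (SE 0.245, adjusted p = 0.0419). That call was lost with RLE size factors (0.33, adjusted p = 0.237) and with DESeq2. It was lost too without the count filter, with only the groups compared and without the shallow ribosomal libraries. Nor did it hold without any 1 of ribosomal libraries 16, 18 or 19 or total libraries 15, 16, 17, 19 or 21 (0.41 to 0.54, adjusted p = 0.0526 to 0.132). Colq was higher by 1.08 (SE 0.264, adjusted p = 0.000285) in females and by 0.67 (SE 0.237, adjusted p = 0.00993) in males, the latter not with RLE size factors (0.44, adjusted p = 0.0861) or with DESeq2. Ache was higher by 0.89 (SE 0.269, adjusted p = 0.00293) in males and stood at 0.14 (adjusted p = 0.69) in females. Chrna1 was higher by 0.45 (adjusted p = 0.00762) in males, but 0.22 (adjusted p = 0.186) with RLE size factors. It also failed with DESeq2, with the mitochondrial term and without total libraries above 19% of reads outside genes.

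Ncam1 was lower on ribosomes, at −0.62 (SE 0.208, adjusted p = 0.0073) in females and −0.75 (SE 0.197, adjusted p = 0.000604) in males. Chrnb1 was lower in females (−0.36, adjusted p = 0.0301), and not without total library 14 (−0.29, adjusted p = 0.0905), with limma-voom (−0.27, adjusted p = 0.0597), without the shallow ribosomal libraries (−0.27, adjusted p = 0.0929) or without total libraries above 19% of reads outside genes (−0.28, adjusted p = 0.0732). Chrne, Dok7 and Dach2 passed in neither sex, but Dach2 was called lower without the count filter in both (−0.55, adjusted p = 0.048 and −0.54, adjusted p = 0.036), and in males also with RLE size factors (−0.72, adjusted p = 0.0354). Schwann cell markers were far lower on ribosomes, with 9 of 9 tested lower in each sex and medians of −2.60 and −3.03. Rapsn, which encodes the scaffold that ties receptors together and is no member, was higher by 1.30 (adjusted p = 1.79e-13) in females and 1.26 (adjusted p = 1.11e-13) in males, and Utrn was lower, at −2.29 (adjusted p = 3.04e-19) and −2.24 (adjusted p = 3.99e-20).

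**Figure D5:**
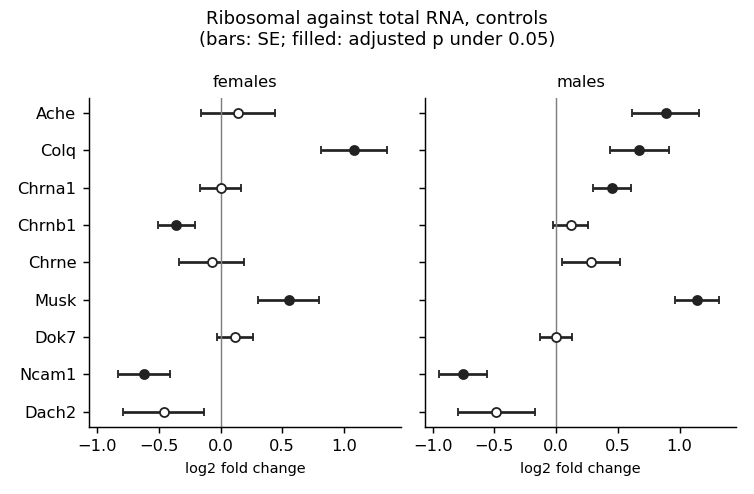
Log2 difference of ribosomal over total RNA in controls (x axis) for 9 members, with bars of 1 standard error and filled points where the adjusted p was under 0.05, from the joint scaling of 56 libraries. Musk reaches 1.14 in males and Colq 1.08 in females, while Ncam1 lies at −0.62 and −0.75.

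Within groups, some members varied together in total RNA. This includes the 5 libraries of low Mss51, at which Chrna1, Chrne and Dach2 split as given above, and r without them was not computed. Of the 45 pairs, those of the receptor genes and Dach2 are given. Pearson's r of deviations from the group means over 28 libraries was 0.76 for Chrna1 with Chrne, 0.64 for Chrnb1 with Chrne and 0.54 for Chrna1 with Chrnb1. Dach2 ran against them, at −0.79 with Chrne, −0.73 with Chrnb1 and −0.57 with Chrna1. In ribosomal RNA the same pairs had smaller values, at 0.05 for Chrna1 with Chrne, 0.30 for Chrnb1 with Chrne and 0.40 for Chrna1 with Chrnb1. Dach2 there had 0.18 with Chrne, 0.00 with Chrnb1 and −0.35 with Chrna1. The libraries share a table, a scaling and differences in depth, and these values are descriptions.

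The genes most like Ache over the 28 ribosomal libraries, by Pearson's r of log2 CPM, were Nrd1 (0.84), Atcayos (0.83), Tppp2 (0.82), Vwa3b (0.81) and Atoh7 (0.81), among 8316 genes. Over the 28 total libraries they were Fam174a (0.82), Gamt (0.82), Zfp652os (0.81), Rap1a (0.80) and Adk (0.80), among 10178 genes. Those most like Dach2 in ribosomal libraries were Cbx1 (0.87), Cmss1 (0.79), Iqgap2 (0.77), Ddx23 (0.77) and Stab2 (0.77). Among those most like it in total libraries were Maob (0.88), Tmf1 (0.88), Cbx1 (0.87) and Clip4 (0.87). Each r runs across the genotypes. For log2 CPM 2 counts were added whatever the depth, which raises low counts of Ache and Dach2 in shallow ribosomal libraries. Depth therefore enters these values. Within groups r fell to 0.29 to 0.60 for the 5 genes most like Ache in ribosomal RNA, and it was 0.78 to 0.80 for Maob, Tmf1, Cbx1 and Clip4 with Dach2 in total RNA. The values of Dach2 include the 5 libraries of low Mss51, at which it split, and r without them was not computed.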

How the data were processed

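Gene expression was measured in 56 libraries of mouse gastrocnemius from 28 mice, made with a 3′ tag kit (Lexogen QuantSeq) from 500 ng RNA and read for 50 bp, per the labels' protocols. The authors deposited raw counts per gene. The submitters' processing notes name UMI-tools, STAR, HTSeq, build GRCm39, DESeq2 1.40.1 and R 4.3.0. Whether counting used strand is not given in the sources used here.

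From the deposited counts, genes were filtered with edgeR's filterByExpr, scaled by TMM and tested with edgeR 4.0.16 (quasi-likelihood) in R 4.3.3, with ribosomal and total libraries fitted apart (28 libraries each) and all 56 jointly for contrasts between RNA types. P-values were adjusted by Benjamini and Hochberg over all genes, at 0.05. Summary lines for reads outside genes were left out (4.82% to 12.5% in ribosomal and 9.54% to 23.4% in total libraries). DESeq2 1.42.0 and limma-voom 3.58.1 were alternatives. Limits for counts of 0 use 3 counts and cover counting error only. P-values set a difference between group means against the spread of these libraries within groups.

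All 10 members were reported in every contrast, and from each other list up to 3 genes of lowest p. Members and lists were chosen with earlier results of these data known. Mouse numbers shared by a ribosomal and a total library come from the labels; deviations of same-numbered libraries correlated at 0.0569, 0.194, −0.161 and 0.204 on average over 7 pairs and 500 genes in female controls, female labelled knockouts, male controls and male labelled knockouts. Some genes that the rules would name are not reported here.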

Additional observations from a re-analysis of the deposited data

Results flagged for a closer look

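In 11 of 80 groups of 7 libraries, 1 library stood far from the others by Dixon's criterion, which chance alone meets in about 1 in 20 groups. Of 36 tests of a difference in response between the sexes or RNA types, 0 passed by edgeR's test. Male labelled knockout 2 in ribosomal RNA, the shallowest library, was low for Chrna1 (36.0 CPM from 5 counts, others 82.6 to 114). It was also flagged for Chrnd, with 0 counts (others 0.464 to 1.98 CPM). The criterion was applied to log2 CPM with 2 counts added, which sets a count of 0 in so shallow a library above the others. That flag is no sign of a low level, as 0 counts there allow up to 21.6 CPM. Among shallow ribosomal libraries of females, control 19 was low for Chrnb1 (14.6 CPM from 4 counts, others 32.9 to 45.4), control 18 high for Chrne (18.8 CPM from 8 counts, others 0 to 10.3) and labelled knockout 12 high for Musk (17.6 CPM from 8 counts, others 8.07 to 12.4).

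In total RNA of female controls, library 14 was high for Chrnb1 (99.8 CPM, others 67.3 to 79.3) and library 18 low for Chrne (9.19 CPM, others 12.3 to 14.7). Male control 27 was low for Chrnb1 (57.9 CPM, others 68.0 to 76.1) and for Ncam1 (16.3 CPM, others 22.0 to 26.6). Among male labelled knockouts, library 12 was low for Colq (2.43 CPM from 7 counts, others 4.51 to 6.49) and library 2 high for Ncam1 (31.4 CPM, others 18.6 to 23.1).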

How the results depend on the processing

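Over 108 member results, 850 values under alternatives left 799 on the same side of the threshold, lost 28 calls, gained 23 and reversed 0, and 2016 refits without 1 library left 1951, lost 53, gained 12 and reversed 0. The genes that passed among all genes tested under a setting are given in brackets. Of 9 members, the number called in ribosomal RNA of labelled knockout females was 2 of 5 when only the groups compared were fitted (936 of 7035 genes), since Ache, Colq, Musk and Dach2 did not pass its count filter. It was 2 with mitochondrially encoded mRNA as a covariate (508 of 9098). In males it was 3 without the count filter (1040 of 25890). In total RNA of males it was 3 to 5 over all alternatives, without Chrnb1 under the covariate, while the genes that passed ran from 645 of 13264 to 2030 of 12860. In total RNA of females it was 1 without the filter (881 of 31252), 4 with the covariate (1404 of 12860) and 1 without libraries with over 19% of reads outside genes (1274 of 13264). Differences in response between the sexes in ribosomal RNA numbered 1 without the filter (626 of 25890) and 1 with limma-voom (684 of 9098). Between RNA types in females they numbered 1 without the filter (419 of 32797), 1 with DESeq2 (508 of 12546), 1 with the covariate (243 of 12546) and 1 without the libraries over 19% (581 of 12794). Sex differences in ribosomal RNA numbered 2 with limma-voom (1874 of 9098), and members differing between RNA types in female controls 2 without ribosomal libraries under 0.75 M counts (8835 of 13136). The cause of these changes was not tested, other than the filtering named.

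Leaving out 1 library gave 3 to 4 and 3 to 5 calls in ribosomal and 0 to 2 and 3 to 5 in total RNA of females and males, 0 to 1 and 0 to 0 for differences between the sexes in response, 1 to 1 and 3 to 3 for sex in controls, 3 to 4 and 5 to 5 between RNA types, and 0 to 1 and 0 to 0 for their difference in response. With the mouse as a replicate block, 4 members differed between RNA types in female and 5 in male controls, where 8387 and 8673 of 12546 genes passed. Under it Colq stood at 1.02 in females and Musk at 1.12 in males, and no member's call changed. Depth limits Ache, Chrnd and Dach2 in shallow ribosomal libraries.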
